A study of Oryza sativa with 44 samples.

Results

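Genes of the strigolactone pathway and of tiller outgrowth were followed across 44 RNA libraries of rice (Oryza sativa) seedlings in 15 groups. The set was defined by locus ID and not by any measured value, and holds 9 loci: D10 (LOC_Os01g54270), D17 (LOC_Os04g46470), D27 (LOC_Os11g37650), D14 (LOC_Os03g10620), D3 (LOC_Os06g06050), D14L (LOC_Os03g32270), D53 (LOC_Os11g01330), OsTB1 (LOC_Os03g49880) and IPA1, also called OsSPL14 (LOC_Os08g39890). Of these, 8 had a row among the 58089 rows of the count table, and D27 was not analysed here. The names come with the definition of the set. A RefSeq gene table lists 5 of them (D10, D17, D14, D3 and IPA1), each on the chromosome that the locus ID gives.

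Strigolactones are carotenoid-derived hormones that hold back the outgrowth of axillary buds, and rice mutants that cannot make or sense them are short and form many tillers. D27, an isomerase, and the carotenoid cleavage dioxygenases D17 and D10 act in turn in their synthesis. The hormone is bound by the hydrolase D14, which joins the F-box protein D3 and thereby marks the repressor D53 for degradation. D14L is a close relative of D14 that also works with D3, in the karrikin pathway. OsTB1, a TCP transcription factor that restrains bud outgrowth, and IPA1, an SBP-box transcription factor that shapes plant architecture, act downstream, and D53 can hold IPA1 in check. In strigolactone mutants of rice the transcripts of synthesis genes accumulate, so their level can follow both supply of and response to the hormone.

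All plants were seedlings grown for 2 weeks in nutrient solution, of an organ that the labels leave unnamed. The series asked how altering YTH genes, which encode readers of methylated adenosine in RNA, changes gene expression. Groups labelled as DJ were the CRISPR knockouts osythdf1a, osythdf2a and osythdf3a and the DJ wild type. Groups labelled as NIP were the CRISPR knockouts osythdf1b, osythdf1c, osythdf2b, osythdf3b, osythdf3c, osythdf4c and osythdf5c, the knockdowns RNAi-OsYTHDC1A and RNAi-OsYTHDF2C, the overexpression line OE-OsYTHDF1A and the NIP wild type. Each group had 3 libraries, except osythdf2a with 2. The labels do not say how many independent transformants a line stands for, and the transcripts of the altered YTH genes were not analysed here. Replicates are biological according to the series text, and p-values cover only the spread among these libraries.

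Library totals ranged from 13541543 to 24099581 counts. Replicate 3 of osythdf3a stood apart from its group, with a chi-square per degree of freedom of 120 and 103 against the other osythdf3a libraries, and the osythdf5c libraries differed among themselves by 6.29 to 19.7. The remaining replicate pairs gave 1.58 to 4.85. As the organ is not named, leaf and root loci taken from general knowledge were summed. Of the 7 leaf loci, 1 had no counts in any group. The leaf sum had group means between 7669 CPM in osythdf3c and 64489 CPM in OE-OsYTHDF1A. The sum of the 7 root loci lay between 23.9 CPM in osythdf5c and 566 CPM in osythdf2a. In these sums, CPM are counts scaled by library totals alone. The levels of the genes below are in CPM scaled by depth and by the TMM method. In bulk seedlings, fewer cells of a type and less RNA per cell cannot be told apart.

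The genes differed widely in abundance. By the authors' FPKM, which is scaled by gene length, the median of the 15 group means was 147 for D14, 14.7 for D3, 11.4 for D53, 8.13 for D14L, 1.84 for IPA1, 0.742 for D17 and 0.0535 for OsTB1. D10 was at the limit of detection, with a median of 0.00597 FPKM. In these libraries the perception genes D14, D3 and D14L were thus above the synthesis genes D17 and D10 and above OsTB1. As the organ sampled is not named, this order may not hold for other organs of the seedlings.

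Lines were tested against their own wild type, DJ or NIP, and 7 of the genes passed the filter on low counts. OsTB1 passed only through the groups where it was high, and D10 did not pass. A gene is called when its adjusted p is under 0.05 in the quasi-likelihood test of edgeR, adjusted by Benjamini-Hochberg over all genes tested. Of 91 pairs of a gene and a line, 54 were called, in data where most genes tested differed too in all lines but osythdf3b. Of these calls, OsTB1 gave 4 higher and 3 lower than the wild type, which are descriptions only. The counts that follow include OsTB1. In osythdf3c, 6 of the 7 genes were called, against 78.5% of all genes tested. It was 6 in osythdf1b (76.9% of all genes) and 6 in osythdf3a (72.2%). In osythdf1a the number was 5 (77%). Counts of 4 were found in RNAi-OsYTHDC1A (73.8%), osythdf4c (66.8%), osythdf2b (65%), OE-OsYTHDF1A (63.3%) and osythdf3b (40%). Counts of 3 were found in RNAi-OsYTHDF2C (68.7%), osythdf5c (62.6%) and osythdf2a (51.8%), and osythdf1c had 2 (68.7%). Between the wild types, DJ against NIP, 6 of the 7 were called, against 75.1% of all genes. With OsTB1 included, the share of called genes in the set was above that of all genes in osythdf1b, osythdf3a, osythdf3b, osythdf3c and DJ. It was below that share elsewhere. With 7 genes, OsTB1 among them, no excess or lack of calls can be read from this. All 10 NIP lines share the 3 NIP libraries and all 3 DJ lines the 3 DJ libraries.

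**Figure D1:**
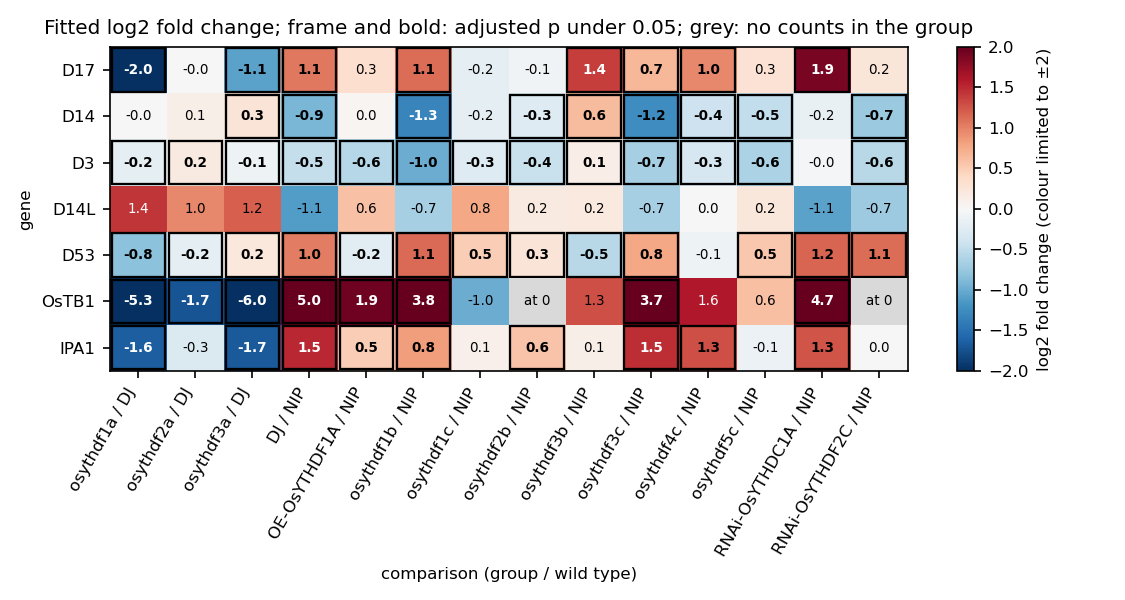
Fitted log2 fold changes (edgeR) of the 7 genes tested, in rows, in the 13 lines against their wild type and in DJ against NIP, in columns. Frames mark adjusted p under 0.05; OsTB1, IPA1 and D17 were lower in osythdf1a and osythdf3a and higher in RNAi-OsYTHDC1A, osythdf1b and osythdf3c, and D14L has no frame.

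Among the synthesis genes, D10 yielded 59 counts over all libraries and none in 28 of them. Only 4 groups had more than 3 counts: osythdf1b with 18, RNAi-OsYTHDC1A with 16, osythdf3c with 9 and the DJ wild type with 10. The NIP wild type had 1 count, so that the ratio to NIP was 20.9 in osythdf1b (exact 95% counting interval 3.30 to 872), 17.7 in RNAi-OsYTHDC1A (2.75 to 742) and 11.1 in osythdf3c (1.54 to 488). In osythdf1a and osythdf3a D10 had no counts. With 3 counts over the group taken as the floor, DJ was 3.48-fold and 3.29-fold above the floor of these lines. That floor was 0.0541 CPM in osythdf1a. Tested by edgeR without the filter on low counts, D10 was called in osythdf1b (adjusted p = 0.00126), RNAi-OsYTHDC1A (0.0051) and osythdf3c (0.0474). By the same test it was called in osythdf1a (0.0117) and osythdf3a (0.0149). It was also called higher in DJ than in NIP (0.0254), with a ratio of 13.1 (interval 1.865 to 568.8). Intervals and floors cover counting error only, and the ratios to a floor leave out that of the DJ counts.

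D17, which cleaves the carotenoid before D10 does, was highest in RNAi-OsYTHDC1A and lowest in osythdf1a. It stood at 6.085, 5.295 and 6.49 CPM in RNAi-OsYTHDC1A, against 1.425, 2.02 and 1.35 CPM in the NIP wild type. The libraries were far apart (log2 fold change 1.90, SE 0.17, adjusted p = 1.9e-15). In osythdf1a it stood at 0.843, 0.977 and 0.591 CPM, against 2.84, 3.63 and 3.52 CPM in the DJ wild type, again without overlap (log2 fold change -2.01, SE 0.24, adjusted p = 1.4e-10). D17 was called in 7 of the 13 lines, and in each of them the libraries did not overlap with those of the wild type. The NIP lines with a call were all higher than NIP: besides RNAi-OsYTHDC1A these were osythdf3b (log2 fold change 1.38), osythdf1b (1.12), osythdf4c (0.95) and osythdf3c (0.66). In the DJ background D17 was lower in osythdf3a as well (log2 fold change -1.07), while osythdf2a averaged 3.30 ± 0.0397 CPM (SD, n = 2) and DJ 3.33 ± 0.431 CPM (SD, n = 3), with an adjusted p of 0.995 and a 95% interval of the log2 difference from -0.39 to 0.39. In the order of the 15 group means, RNAi-OsYTHDC1A at the top and osythdf1a at the bottom were the ones set apart from their neighbours. Set against the mean of the other NIP lines in place of NIP, the rise in osythdf3c was gone (log2 fold change -0.001).

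The receptor gene D14 was the most abundant of the set and moved in both directions. In osythdf3b it reached 782, 781 and 729 CPM, against 510, 458 and 504 CPM in the NIP wild type. Every osythdf3b library was above every NIP library, and the log2 fold change was 0.63, with an SE of 0.087 and an adjusted p of 2.2e-06. In osythdf1b it stood at 202, 194 and 193 CPM (log2 fold change -1.32, SE 0.09, adjusted p = 2.0e-12 against NIP), and in osythdf3c at 209.9, 203 and 195 CPM (-1.24, SE 0.09, adjusted p = 6.5e-12). These 6 libraries were the lowest for D14 of all groups. Smaller falls were called in RNAi-OsYTHDF2C (-0.75), osythdf5c (-0.48), osythdf4c (-0.42) and osythdf2b (-0.25). The call in osythdf2b was lost with library totals in place of TMM (log2 fold change -0.11, adjusted p = 0.272), without replicate 2 of osythdf2b (adjusted p = 0.071) and without replicate 1 of NIP (0.0541), and the direction turned against the other NIP lines (0.18). In OE-OsYTHDF1A D14 averaged 502 ± 19.8 CPM and in NIP 491 ± 28.1 CPM (SD, n = 3 each), and the 95% interval of the log2 difference ran from -0.13 to 0.21.

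In the DJ background D14 differed little. It averaged 257 ± 7.97 CPM in osythdf1a, 283 ± 30.9 CPM in osythdf2a, 312 ± 22.6 CPM in osythdf3a and 263 ± 9.92 CPM in DJ (SD, n = 3 each, and n = 2 in osythdf2a). The rise in osythdf3a was called (log2 fold change 0.26, adjusted p = 0.0066) but not with library totals (0.01, adjusted p = 0.937). Library totals added a call in osythdf1a (-0.26, adjusted p = 0.00015) and in osythdf2a (0.22, adjusted p = 0.0067), where the test without the filter on low counts also gave one (0.12, adjusted p = 0.0206). Which DJ lines had a D14 call therefore depended on the scaling.

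D3, the F-box gene that serves D14 and D14L alike, varied least between groups, with a ratio of 2.18 between the highest group mean (osythdf3b) and the lowest (osythdf1b). It stood at 37.7, 37.5 and 39.1 CPM in osythdf1b, against 76.0, 75.3 and 75.1 CPM in NIP. With replicates this close the log2 fold change of -0.99 had an SE of 0.046 (adjusted p = 2.8e-28). Falls were also called in osythdf3c (log2 fold change -0.67), osythdf5c (-0.64), OE-OsYTHDF1A (-0.58), RNAi-OsYTHDF2C (-0.56), osythdf2b (-0.44), osythdf4c (-0.34) and osythdf1c (-0.26), so that D3 was below NIP in 8 of the 10 NIP lines. In osythdf1c and osythdf4c it was above the mean of the other NIP lines (0.19 and 0.11), as most of those lines also lay below the wild type. D3 rose in osythdf3b by 0.14 (adjusted p = 0.0084), a call lost with library totals (0.06, adjusted p = 0.274). RNAi-OsYTHDC1A averaged 73.0 ± 3.35 CPM (SD, n = 3) and NIP 75.5 ± 0.458 CPM (SD, n = 3), with an adjusted p of 0.367. Library totals made D3 higher there (0.27, adjusted p = 9.3e-08).

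Calls for D3 in the DJ background were small. It was lower in osythdf1a (log2 fold change -0.17, adjusted p = 0.00086) and higher in osythdf2a (0.17, adjusted p = 0.0027), but the call in osythdf2a was lost without its replicate 3 (0.15, adjusted p = 0.0592). In osythdf3a the libraries overlapped with DJ and the fall of 0.10 had an adjusted p of 0.0496. It was not called without DJ replicate 2 (adjusted p = 0.228), DJ replicate 3 (0.0941) or osythdf3a replicate 3 (0.298).

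**Figure D2:**
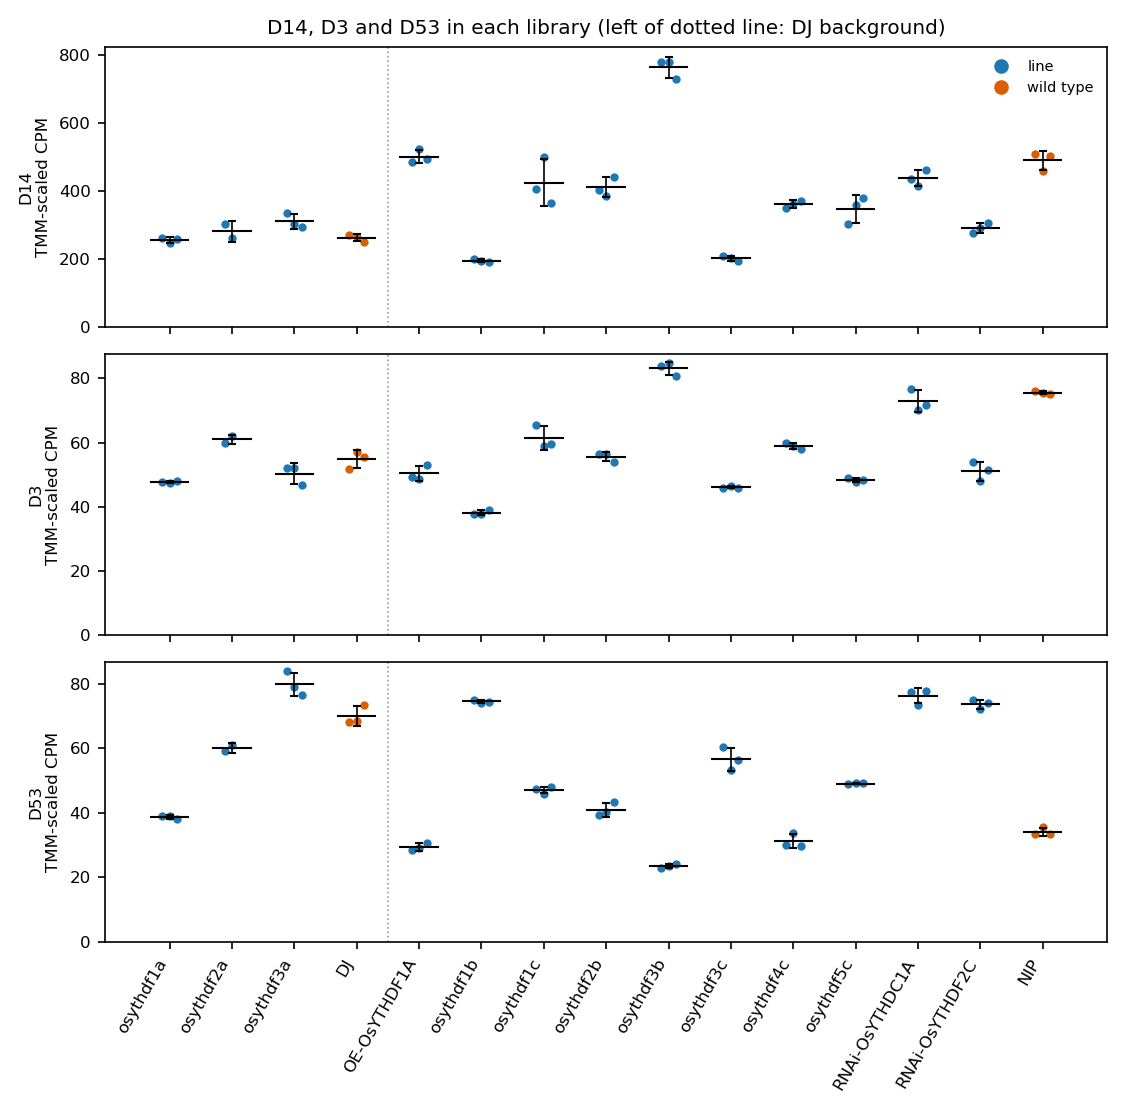
D14, D3 and D53 in TMM-scaled CPM by group; points are libraries, bars the group mean and SD, with lines in blue and wild types in orange. D14 was highest in osythdf3b, where D53 was lowest, and D14 and D3 were lowest in osythdf1b, where D53 was at 74.5 CPM.

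D14L, the karrikin receptor gene, was called in none of the 13 lines by edgeR (lowest adjusted p 0.126, in RNAi-OsYTHDC1A). Unadjusted, 0 of the 13 had a p under 0.05 in edgeR and in DESeq2 and 1 in limma on the FPKM, and after adjustment all of these tools gave 0. Its replicates did not resemble each other. It stood at 1.54, 16.4 and 17.1 CPM in osythdf3a, an 11.1-fold range within the group, against 8.34, 5.345 and 1.255 CPM in DJ. In RNAi-OsYTHDC1A it stood at 3.92, 1.203 and 9.99 CPM, against 15.95, 13.8 and 1.49 CPM in NIP. Its libraries differed more than 2-fold in 9 of the 15 groups. On the log2(CPM + 0.5) scale its SD within groups was 0.93, and of 7086 genes within 2-fold of its level none varied more, with a median of 0.13. In osythdf1c, osythdf3c and osythdf4c the replicates lay close together, at 17.1 to 17.9 CPM, 6.10 to 6.69 CPM and 10.0 to 10.7 CPM. In NIP replicate 3, where D14L was at 1.49 CPM, D3 was at 75.1 CPM, beside 76.0 and 75.3 CPM in the other NIP libraries. Leaving out NIP replicate 3 made D14L lower in RNAi-OsYTHDC1A (log2 fold change -1.58, adjusted p = 0.0136) and in DJ than in NIP (-1.62, adjusted p = 0.0313). Leaving out replicate 3 of RNAi-OsYTHDC1A (-2.04, adjusted p = 0.0199) or replicate 1 of osythdf3a (1.79, adjusted p = 0.0423) likewise produced a call.

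**Figure D3:**
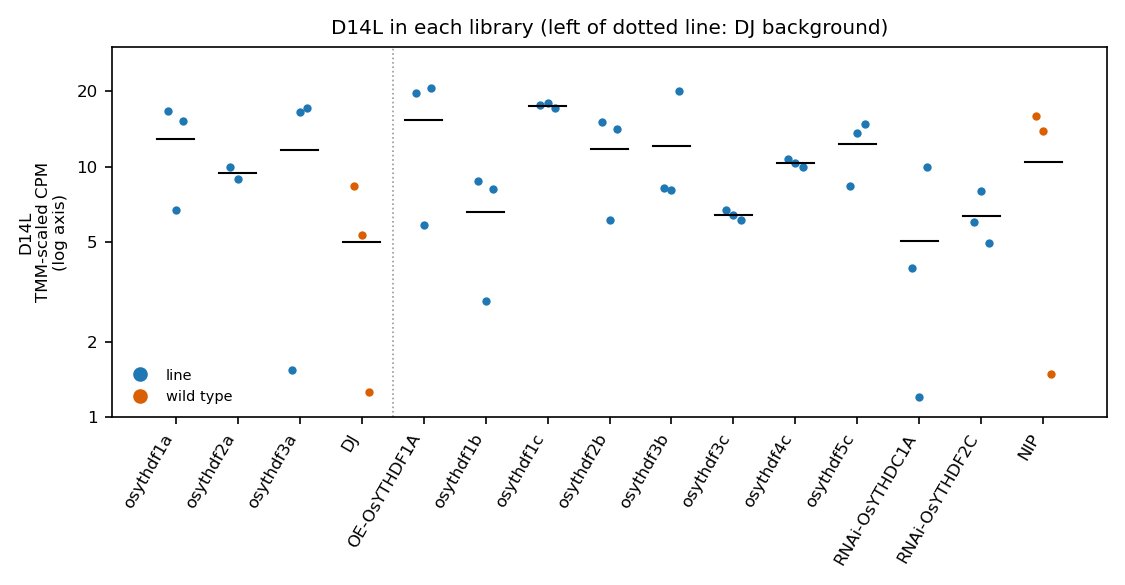
D14L in TMM-scaled CPM on a log axis by group; points are libraries, bars group means, with lines in blue and wild types in orange. Single libraries of osythdf3a, RNAi-OsYTHDC1A, DJ and NIP lie near 1 to 2 CPM while the others of these groups lie between 3.92 and 17.1 CPM.

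The repressor gene D53 had tight replicates and was called in 12 of the 13 lines. It was highest above NIP in both knockdown lines and in osythdf1b. RNAi-OsYTHDC1A had 77.6, 73.5 and 77.9 CPM, RNAi-OsYTHDF2C 74.8, 72.1 and 74.0 CPM and osythdf1b 75.0, 74.2 and 74.3 CPM, against 33.5, 35.5 and 33.4 CPM in NIP. The libraries of these lines overlapped with each other and stood far above NIP. The log2 fold changes were 1.17 (SE 0.047, adjusted p = 6.2e-31), 1.11 (SE 0.048, adjusted p = 2.4e-29) and 1.13 (SE 0.048, adjusted p = 4.1e-30). Smaller rises were called in osythdf3c (0.77), osythdf5c (0.53), osythdf1c (0.49) and osythdf2b (0.26). D53 was lower than NIP in osythdf3b, at 22.8, 23.4 and 24.1 CPM (log2 fold change -0.55, SE 0.055, adjusted p = 1.1e-12), and in OE-OsYTHDF1A (-0.21). It averaged 31.2 ± 2.19 CPM in osythdf4c, which was not called (adjusted p = 0.0713). Against the other NIP lines the direction in osythdf2b turned (-0.22).

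In the DJ background D53 fell in osythdf1a, with 39.1, 39.2 and 37.95 CPM, against 68.0, 68.4 and 73.5 CPM in DJ, a log2 fold change of -0.83 with an SE of 0.045 and an adjusted p of 3.7e-23. In osythdf2a the fall was 0.20 (adjusted p = 0.00026), not called with library totals (-0.10, adjusted p = 0.267) and opposite against the other DJ lines (0.11). In osythdf3a it was higher with TMM (0.21, adjusted p = 1.8e-05) and not with library totals (-0.05, adjusted p = 0.533). The RefSeq table lists a relative named D53-L on chromosome 12. How reads that fit both genes were counted is not given in the sources used here, so the level of D53 is uncertain by what they share. LOC_Os11g01310, a neighbour of D53 in the order of locus numbers, averaged 27.1 CPM in osythdf3a and no more than 0.63 CPM in each of the other groups.

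OsTB1 was present in some groups and nearly absent in others. It had 102 counts over the 3 libraries in RNAi-OsYTHDC1A, 47 in osythdf1b, 44 in osythdf3c, 23 over the 2 libraries of osythdf2a and 104 in the DJ wild type. The other groups had at most 9 counts, NIP 3, and RNAi-OsYTHDF2C and osythdf2b none, for which 3 counts over the group allow up to 0.0505 and 0.0557 CPM. The lowest library of the 5 groups with OsTB1 was at 0.5125 CPM and the highest library of the other 10 groups at 0.299 CPM. As the groups were divided by these same levels, the gap is a description and no test. In the order of group means, 4 of 14 pairs of neighbouring groups were apart, osythdf2a and OE-OsYTHDF1A among them.

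Against NIP, RNAi-OsYTHDC1A had 1.58, 1.44 and 1.21 CPM of OsTB1, with NIP at 0.046, 0 and 0.0962 CPM. The ratio of counts scaled by depth was 37.6, with an exact 95% counting interval from 12.5 to 185. The fitted log2 fold change was 4.74 (SE 0.52, adjusted p = 5.1e-12). OsTB1 passed the filter on low counts only through the groups where it was high, so its adjusted p-values, here and below, are descriptions. In osythdf1b the libraries stood at 0.749, 0.7515 and 0.669 CPM (ratio 18.2, interval 5.86 to 91.45; adjusted p = 1.3e-07). In osythdf3c they stood at 0.824, 0.597 and 0.628 CPM (ratio 18.1, interval 5.81 to 91.3; adjusted p = 2.0e-07). OsTB1 in these lines therefore reached levels that the NIP wild type did not have in any library. The call in OE-OsYTHDF1A rested on 9 counts against 3 (ratio 3.86, interval 0.962 to 22.1, adjusted p = 0.0414). The libraries of that line overlapped with NIP. The call was lost with library totals (adjusted p = 0.0581) and in DESeq2 (0.0788). It was also lost without replicate 1 or 3 of OE-OsYTHDF1A (0.0744 and 0.227) or replicate 1 or 2 of NIP (0.0802 and 0.157). With 9 counts as well, osythdf4c was not called (ratio 3.70, interval 0.923 to 21.2, adjusted p = 0.0908), though its libraries did not overlap with NIP. It was called without NIP replicate 3 (adjusted p = 0.0474) and in limma at a pseudocount of 0.1 (0.0347).

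Against DJ the direction was the opposite in every line. OsTB1 had 2 counts in osythdf1a and 1 in osythdf3a, where the DJ wild type had 104. The ratio of DJ over the line was 54.3 for osythdf1a (interval 14.6 to 454; adjusted p = 4.2e-12) and 103 for osythdf3a (interval 18.0 to 4098; adjusted p = 3.4e-12). In osythdf2a OsTB1 stood at 0.52 and 0.5125 CPM, against 1.91, 1.62 and 1.74 CPM in DJ, a ratio of DJ over the line of 3.13 (interval 1.98 to 5.15; log2 fold change -1.73, SE 0.37, adjusted p = 7.3e-05). Since the other DJ lines had almost none, osythdf2a was higher than their mean (log2 fold change 3.92). With so few counts the fitted values moved with single libraries. Without NIP replicate 3, which held 2 of the 3 NIP counts, the log2 fold change was 5.58 in RNAi-OsYTHDC1A, 4.61 in osythdf1b, 4.57 in osythdf3c and 2.79 in OE-OsYTHDF1A, and without osythdf3a replicate 1 it was -8.03 in osythdf3a.

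IPA1, the transcription factor gene that acts with OsTB1 on plant architecture, was higher in 6 of the 10 NIP lines than in NIP and lower in none. In osythdf3c it stood at 7.17, 6.88 and 7.99 CPM, against 2.44, 2.53 and 3.175 CPM in NIP (log2 fold change 1.48, SE 0.14, adjusted p = 6.8e-15). Rises were also called in osythdf4c (1.29, SE 0.14), RNAi-OsYTHDC1A (1.25, SE 0.14) and osythdf1b (0.84, SE 0.15), each without overlap between libraries. Smaller ones were called in osythdf2b (0.56, adjusted p = 0.0013) and OE-OsYTHDF1A (0.49, adjusted p = 0.0073), and both turned when the other NIP lines served as the reference (-0.04 and -0.12). The call in OE-OsYTHDF1A was lost with library totals (0.35, adjusted p = 0.0543).

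IPA1 fell in osythdf1a and osythdf3a. It stood at 2.59, 1.79 and 2.96 CPM in osythdf1a and at 2.64, 2.22 and 2.27 CPM in osythdf3a, against 7.31, 7.94 and 7.96 CPM in DJ. Neither line overlapped with DJ, and the log2 fold changes were -1.64 (SE 0.16, adjusted p = 1.1e-13) and -1.68 (SE 0.16, adjusted p = 1.2e-13). In osythdf2a IPA1 stood at 5.67 and 6.78 CPM, below every DJ library but not called (adjusted p = 0.0886). The groups with OsTB1 above 0.5 CPM, apart from osythdf1b, were also at 5.67 CPM of IPA1 or more in every library. The reverse did not hold: osythdf4c had IPA1 at 5.94, 6.465 and 7.115 CPM and OsTB1 at 0.117, 0.146 and 0.192 CPM.

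**Figure D4:**
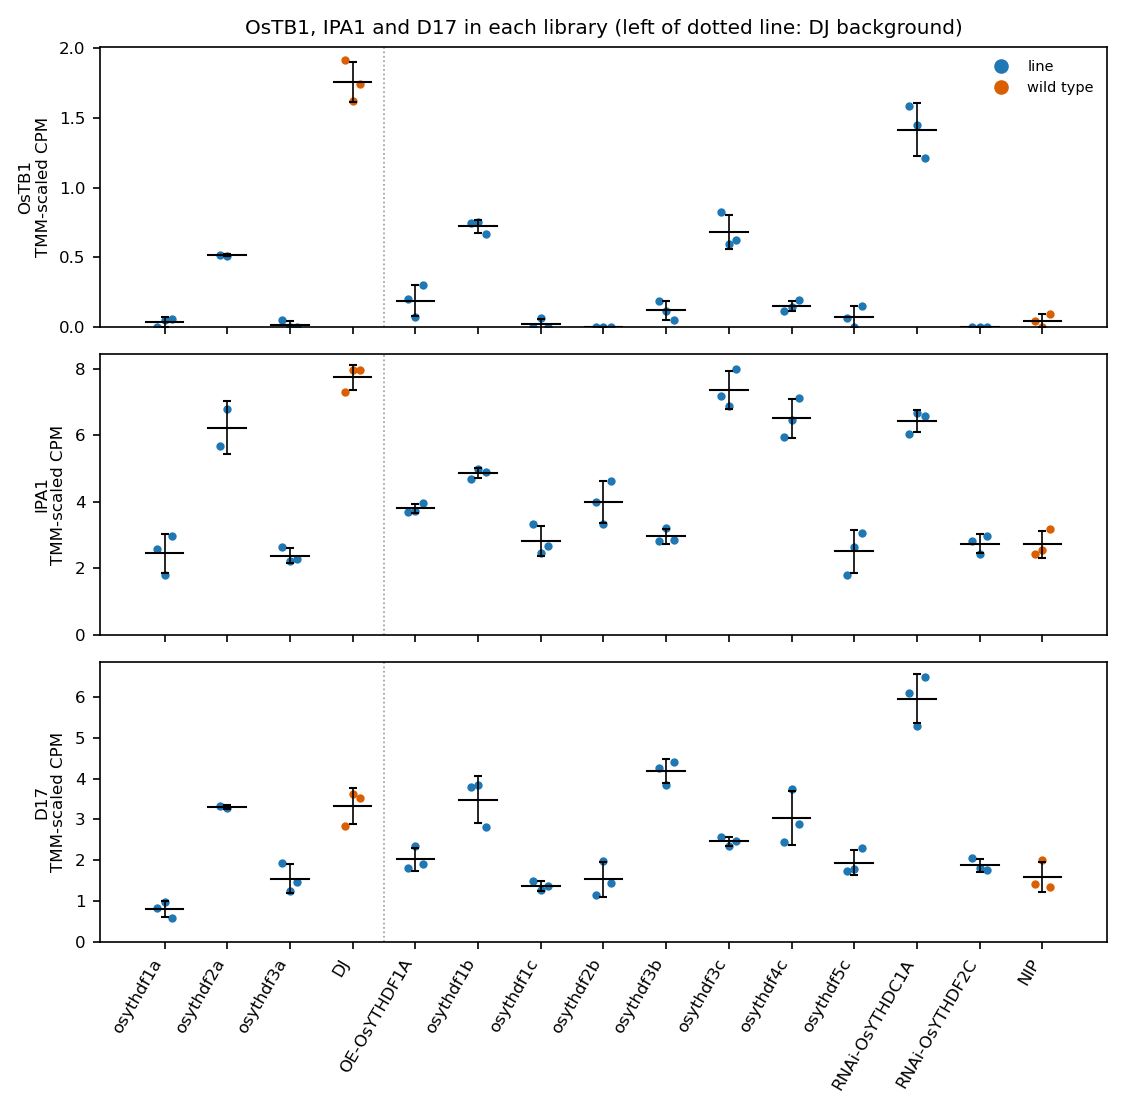
OsTB1, IPA1 and D17 in TMM-scaled CPM by group; points are libraries, bars the group mean and SD, with lines in blue and wild types in orange. OsTB1 is above 0.5 CPM in every library of osythdf2a, osythdf1b, osythdf3c, RNAi-OsYTHDC1A and the DJ wild type and below 0.3 CPM in all other libraries.

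Several of these results involve the libraries that stood apart. Without replicate 3 of osythdf3a, the log2 fold changes of that line against DJ were -1.04 for D17, 0.29 for D14, 0.23 for D53, -5.73 for OsTB1 and -1.65 for IPA1, all still called. Leaving out each osythdf5c library in turn gave -0.55 to -0.39 for D14, -0.64 to -0.63 for D3 and 0.53 to 0.54 for D53, all still called.

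Between the wild types, 6 of the 7 genes tested differed, D14L being the exception. DJ had more OsTB1 than NIP (ratio 45.4, interval 15.1 to 224; log2 fold change 5.03, and 5.87 without NIP replicate 3), more IPA1 (1.51, SE 0.14), more D17 (1.06, SE 0.19) and more D53 (1.03, SE 0.047). It had less D14 (-0.91, SE 0.085) and less D3 (-0.47, SE 0.044). The NIP lines were set against the same NIP libraries. D14, for example, had log2 fold changes against NIP of -1.32 in osythdf1b, -1.24 in osythdf3c and -0.91 in DJ, and IPA1 had 0.84, 1.48 and 1.51 in the same order. Cultivar and any other difference between the wild type samples cannot be told apart.

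The labelled background was therefore set beside the genes. A gene was taken as on in a group with 1 CPM or more in each library, and as off with no more than 3 counts in each. Of 464 genes outside the set that were on in DJ and off in NIP, 55.8% were on in RNAi-OsYTHDC1A, 51.9% in osythdf1b and 47.4% in osythdf3c. The other NIP lines had between 7.5% (osythdf3b) and 29.1% (osythdf4c) on. In the DJ background the share was 77.4% in osythdf2a, 36.4% in osythdf3a and 31.7% in osythdf1a. The 4 lines with OsTB1 above 0.5 CPM in every library were thus those with the highest shares. That cut was taken from the OsTB1 levels and is lower than the one for the class. By the rule of 1 CPM in each library, OsTB1 was on in RNAi-OsYTHDC1A and not in osythdf1b, osythdf3c or osythdf2a. OsTB1 itself meets the definition of this class and was left out of it. Of 256 genes on in NIP and off in DJ, the NIP lines had between 45.3% (osythdf1b) and 68.8% (osythdf3b) on and the DJ lines between 2.3% and 4.7%. The part of this difference between groups in the results for OsTB1, IPA1 and D17 was not tested.

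The leaf loci moved with the same genes. Their sum was lowest in osythdf3c (7669 CPM), RNAi-OsYTHDC1A (13249 CPM), osythdf2a (15790 CPM), osythdf1b (21235 CPM) and the DJ wild type (20030 CPM), which are the 5 groups with OsTB1. Next came osythdf4c with 22517 CPM, which had IPA1 but little OsTB1, and the remaining groups ranged from 30290 CPM in osythdf3a to 64489 CPM in OE-OsYTHDF1A. Over the 15 group means on the log2 scale, the sum had a Pearson correlation of -0.76 with IPA1, -0.70 with OsTB1, -0.66 with D10, 0.61 with D14L, -0.55 with D17, 0.52 with D14, -0.49 with D53 and 0.08 with D3. The root loci, of which between 0 and 2 of 7 were without counts in a group, gave correlations between -0.28 and 0.27 with all 8 genes. The sums were scaled by library totals alone, unlike the levels of the genes. As the groups share backgrounds, the values are descriptions, and the part of the leaf loci in the results was not tested.

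**Figure D5:**
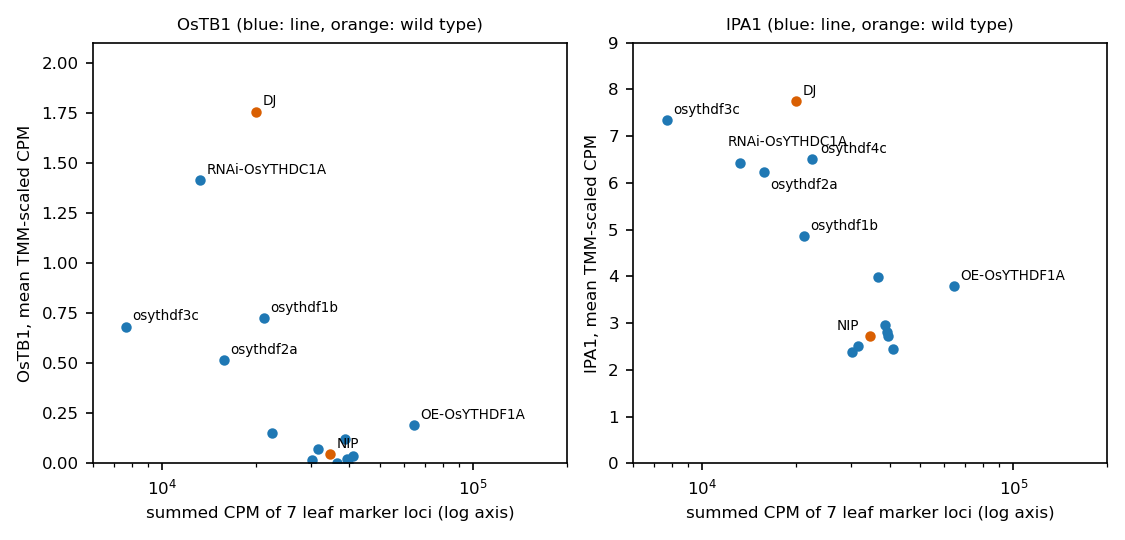
Group means of OsTB1 (left) and IPA1 (right) in TMM-scaled CPM against the summed CPM of 7 leaf loci on a log axis. The sums are scaled by library totals alone. Each point is a group, with lines in blue and wild types in orange. The groups with OsTB1 above 0.5 CPM have leaf sums of 7669 to 21235 CPM.

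Over the 15 group means, the levels of some of the genes ran together. The highest Pearson correlation on the log2 scale was 0.86 (0.89 over the 11 NIP groups), for D10 and OsTB1. D10 rests on 59 counts over all libraries. OsTB1 and IPA1 had 0.82 (0.75), and D17 followed OsTB1 with 0.73 (0.77). D14 and D3, partners in perception, had 0.80 (0.84). D14 and the repressor gene D53 went against each other, with -0.67 (-0.72). D14L had -0.75 with OsTB1, although its group means rest on replicates that differed many-fold. These values are descriptions over groups that share wild types and scaling.

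For each gene the locus with the most similar pattern over the 15 groups was sought among 22074 loci outside the set with a mean of at least 1 CPM. The closest to OsTB1 was LOC_Os06g42620 (r = 0.986), between 0 CPM in osythdf3a and 7.59 CPM in DJ, and the closest to IPA1 was LOC_Os10g41290 (r = 0.976). D14 was most like LOC_Os03g04020 (r = 0.96), D53 most like LOC_Os05g07220 (r = 0.945), D17 most like LOC_Os12g03040 (r = 0.918) and D3 most like LOC_Os01g08320 (r = 0.905). For D10 it was LOC_Os02g49560 (r = 0.949). D14L had the weakest match, LOC_Os12g26860 (r = 0.798). Of the 3 loci on each side of D14 in the order of locus numbers, 4 were tested. All 4 were called higher than NIP in osythdf1b, osythdf3c and osythdf2b, where D14 was lower. The same held in osythdf1c, OE-OsYTHDF1A and RNAi-OsYTHDC1A, where D14 was not called. In RNAi-OsYTHDF2C, osythdf4c, osythdf5c and DJ against NIP, 3 were higher and 0 lower. Higher and lower were 0 and 1 in osythdf3b, 2 and 1 in osythdf1a, 0 and 2 in osythdf2a and 1 and 2 in osythdf3a. Of all 27584 genes tested, 10877 were higher in osythdf1b, 11528 in osythdf3c and 5472 in osythdf3b. Nothing about D14 is read from these counts.

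A further list of 30 loci of the wider strigolactone and tillering pathway, taken from general knowledge, had 25 loci tested. In osythdf1a, 7 were higher and 15 lower than in DJ (median log2 fold change -0.43, against -0.023 for all genes tested). The same counts were 7 and 10 in osythdf3a (median -0.08, against -0.016 for all genes) and 4 and 8 in osythdf2a (-0.11, against -0.066). Among the NIP lines, OE-OsYTHDF1A had 5 higher and 14 lower (-0.25, against 0.008 for all genes), osythdf1c 7 and 13 (-0.17, against 0.014) and osythdf3b 7 and 9 (-0.09, against 0). Counts were more even in RNAi-OsYTHDC1A with 10 and 10 (-0.07, against 0.039), osythdf1b with 10 and 10 (-0.06, against 0.029), osythdf3c with 10 and 9 (0.01, against 0.066) and RNAi-OsYTHDF2C with 7 and 7 (0.03, against 0). They were 12 and 8 in osythdf4c (0.12, against 0.039), 6 and 8 in osythdf2b (-0.03, against 0.021) and 5 and 6 in osythdf5c (0, against 0.001). The wider pathway had loci called in both directions in every line, and DJ against NIP gave 11 higher and 11 lower (0.10, against 0.01). Called in either direction were 88% of the tested loci of the list in osythdf1a (77% of all genes), 80% in osythdf1c (68.7%), osythdf4c (66.8%), RNAi-OsYTHDC1A (73.8%) and osythdf1b (76.9%), 76% in OE-OsYTHDF1A (63.3%) and osythdf3c (78.5%), and 88% in DJ against NIP (75.1%). The share was 68% in osythdf3a (72.2% of all genes), 64% in osythdf3b (40%), 56% in RNAi-OsYTHDF2C (68.7%) and osythdf2b (65%), 48% in osythdf2a (51.8%) and 44% in osythdf5c (62.6%). The list thus lay on both sides of the share of all genes, and nothing particular to it is read from the counts.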

How the data were processed

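RNA was measured in 44 libraries of 2-week-old seedlings. The submitters' processing notes name HISAT2, featureCounts and the build IRGSP-1.0. Versions, the strand setting and the treatment of reads that match several genes were not given in the sources used here. The authors deposited whole-number counts per locus, without normalization, and FPKM. Outside low counts, the deposited FPKM equal the counts scaled by column total and a fixed gene length (100% of values checked within 0.1%). Values at low counts, all those of D10 among them, were left out of this check. The FPKM were used to compare levels between genes. A further 40 columns of each table were not used.

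The genes and all lists were chosen with earlier results of these data known. Every gene of the set is named, plus the locus most correlated with each over group means on log2(CPM + 0.5) among loci with a mean of at least 1 CPM. Neighbouring loci and the wider pathway list are given as counts, with 1 neighbour of D53 named after its values were seen. The wider pathway, leaf and root loci come from general knowledge and are not named in the files. No reference sequences were used.

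The counts were fitted with edgeR 4.0.16 in R 4.3.3 (TMM scaling, filterByExpr, quasi-likelihood test, Benjamini-Hochberg adjustment over all genes tested, threshold 0.05), with all groups of a background in 1 fit and all 15 groups for DJ against NIP. CPM are TMM-scaled. An SE was obtained from the fitted log2 fold change and its F statistic (absolute value over root F) and gives the 95% interval. Ratios of low counts carry exact 95% counting intervals, and 3 counts are the floor for 0. The test was first run on simulated counts in which few genes of the tested line differed from its wild type. That run cannot check the test for data where most genes differ, as here. No replicates were collapsed, as every pair differed by more than counting noise.

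Alternatives were DESeq2 size factors or library totals in edgeR, no filter, DESeq2 1.42.0, limma 3.58.1 on the FPKM at pseudocounts of 1 and 0.1 (log2 scale), a fit of only the groups compared, a 2-fold minimum, the other lines as reference, the replicate number as a block, and each library left out in turn. Nothing in the labels says that replicate numbers pair libraries. Deviations from group means correlated between same-numbered libraries from -0.43 to 0.30, and exceeded 0.1 in every pair only for OE-OsYTHDF1A against NIP (0.101, 0.104 and 0.30), where the block changed no call.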

Additional observations from a re-analysis of the deposited data

How the results depend on the processing

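Of the 60 called log2 fold changes, 51 kept their call and direction in all alternatives other than the 2-fold minimum and the other lines as reference. With a minimum of 2-fold, 22 of the 54 pairs of a gene and a line stayed, OsTB1 included. There were 4 each in RNAi-OsYTHDC1A and osythdf1b, and 3 each in osythdf3c, osythdf1a and osythdf3a. RNAi-OsYTHDF2C, osythdf3b, osythdf4c, OE-OsYTHDF1A and osythdf2a kept 1 each, and osythdf1c, osythdf5c and osythdf2b 0. Of all 27584 genes tested, this minimum kept from 997 higher and 1752 lower in osythdf3b to 6061 and 4600 in osythdf3c. Of 26925 in the DJ fit, it kept from 2125 and 1101 in osythdf2a to 3963 and 5763 in osythdf1a. With 7 genes, no excess or lack is read from these counts. Against the other lines, 5 genes were called in osythdf1c, in RNAi-OsYTHDF2C and in osythdf2a. Against them, all genes gave 9989 higher and 8624 lower in osythdf1c, 8480 and 7739 in RNAi-OsYTHDF2C and 10697 and 9555 in osythdf2a. The direction then turned for D14 in osythdf2b (0.18), D17 in osythdf3c (-0.001), D3 in osythdf1c (0.19) and osythdf4c (0.11), D53 in osythdf2a (0.11) and osythdf2b (-0.22), IPA1 in OE-OsYTHDF1A (-0.12) and osythdf2b (-0.04), and OsTB1 in osythdf2a (3.92); this alternative does not apply to DJ against NIP. Library totals shifted all genes by -0.25 (osythdf1a and osythdf3a) to 0.31 (RNAi-OsYTHDC1A) on the log2 scale. They called 2 genes in OE-OsYTHDF1A, as did limma on log2(FPKM + 1). Of all genes in OE-OsYTHDF1A, library totals called 6755 higher and 10945 lower of 27584, and limma 6726 and 10955 of 33487. D53 in osythdf3a turned to -0.05 with library totals and in limma at both pseudocounts, and D14 in osythdf3a to -0.0018 in limma at both. Leaving out each library gave 52 to 56 calls in all; where osythdf2a kept 1 library, that library is assumed to vary like the other groups. With the replicate block all 60 called results kept their call and D14 in osythdf2a was added (adjusted p = 0.0207), which makes 4 genes there in place of 3. Of the line libraries, 11 of 38 correlated best with their own number in the wild type. Where not stated, the cause was not tested. Depth limits D10 and OsTB1, whose low groups hold 0 to 9 counts.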
